A study of Homo sapiens with 6 samples.

Results

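MHC class I molecules are the cell surface proteins that show fragments of a cell's own proteins to cytotoxic T cells and natural killer cells. The 9 genes described here encode the core of that pathway, HLA-B, HLA-C, HLA-E, B2M, TAP1, TAP2, TAPBP, PSMB8 and PSMB9. They were picked by symbol, with 1 row for each symbol, from the 63241 genes of the deposited table, and none of the symbols had a second row. RNA was sequenced from T24, an established human bladder cancer cell line grown as a culture of tumour cells. Cells were transfected with a small interfering RNA against USP43, a deubiquitinating enzyme gene (siUSP43, labelled as a USP43 knockdown, 3 libraries), or with a control small interfering RNA (siNC, labelled WT, 3 libraries). All 6 libraries carry the same batch label. The labels give no duplex sequence, time after transfection or word on whether replicates were separate cultures, and the p-values thus reflect only library-to-library spread, which may be technical. Whether the 3 siUSP43 samples share a duplex is likewise not stated. No interferon or other cytokine is named among the treatments.

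A class I molecule is a heavy chain, such as HLA-B, HLA-C or HLA-E, held together by beta-2-microglobulin, the product of B2M, around a short peptide. The proteasome cuts proteins into such peptides, and PSMB8 and PSMB9 encode catalytic subunits that replace constitutive ones to form the immunoproteasome. TAP1 and TAP2 encode the paired chains of the transporter that pumps peptides into the endoplasmic reticulum, where tapasin, encoded by TAPBP, helps to load them. Interferon and NF-kB signalling are known to raise the transcription of most of these genes, and tumours are known to lose parts of the pathway.

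Total gene counts ran from 21430574 to 25577200 per library. USP43 itself stood at 1.02, 0.67 and 0.80 FPKM (fragments scaled by exon length and by sequencing depth) in the siUSP43 libraries, against 2.36, 2.09 and 2.08 FPKM in the siNC libraries, a log2 fold change of -1.40 ± 0.14 (SE; p adjusted by Benjamini-Hochberg, BH, over all tested genes in edgeR = 5.63e-06). Across the 11417 genes tested, 56.1% passed an adjusted p of 0.05, with 28.1% lower and 28% higher in siUSP43, so a call by itself sets no gene apart. No replicate pair agreed within sampling noise, since chi-square per degree of freedom ran from 2.07 to 10.2. Of 16 urothelial and epithelial markers, 7 were tested, of which FOXA1, KRT7 and KRT19 fell, with log2 fold changes of -1.24, -0.38 and -0.38, and PPARG rose by 0.50, while KRT8, KRT18 and VIM did not pass. KRT7, KRT8, KRT18 and VIM were the abundant ones, at 86.17 FPKM or more in every library. KRT5 and KRT20 had no counts in any library, and UPK1B, UPK2 and UPK3A stayed at or below 0.16 FPKM. The list summed to 864 to 972 FPKM in siUSP43 and 964 FPKM or more in siNC, and its part in the class I results was not tested. Of 11 immune cell markers, CD3E and MS4A1 had no counts in any library, and the list summed to 1.91 to 2.04 FPKM in siUSP43 and 1.53 to 1.89 FPKM in siNC. Most of that sum in siUSP43 was CD8A, at 1.47, 1.34 and 1.27 FPKM against 0.42, 0.46 and 0.40 FPKM in siNC. Most of it in siNC was CD14, at 0.41, 0.43 and 0.56 FPKM in siUSP43 against 0.89, 1.06 and 0.91 FPKM in siNC. ITGAX, at 0.03 FPKM or less in siUSP43 and 0.07 to 0.09 FPKM in siNC, was also lower in siUSP43, and these 3 genes were named after their values were seen.

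Of the 9 class I genes, 7 fell in siUSP43, 0 rose and 2, TAP2 and PSMB8, did not pass. The background share of genes that fell was 28.1%. The FPKM of the groups did not overlap for 6 of the 9 genes, all lower in siUSP43. Of all 11417 tested genes, 62.2% did not overlap in either direction, and 3383 did not overlap with siUSP43 lower. The median log2 fold change was -0.49 over the 9 genes and -0.01 over all tested genes. Among genes that fell anywhere in the table the median was -0.40. HLA-B and HLA-E had the largest decreases of the 9, and B2M and PSMB9 the smallest that passed. In bulk libraries such as these, fewer cells that express a gene and less of its RNA per cell cannot be told apart.

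**Figure D1:**
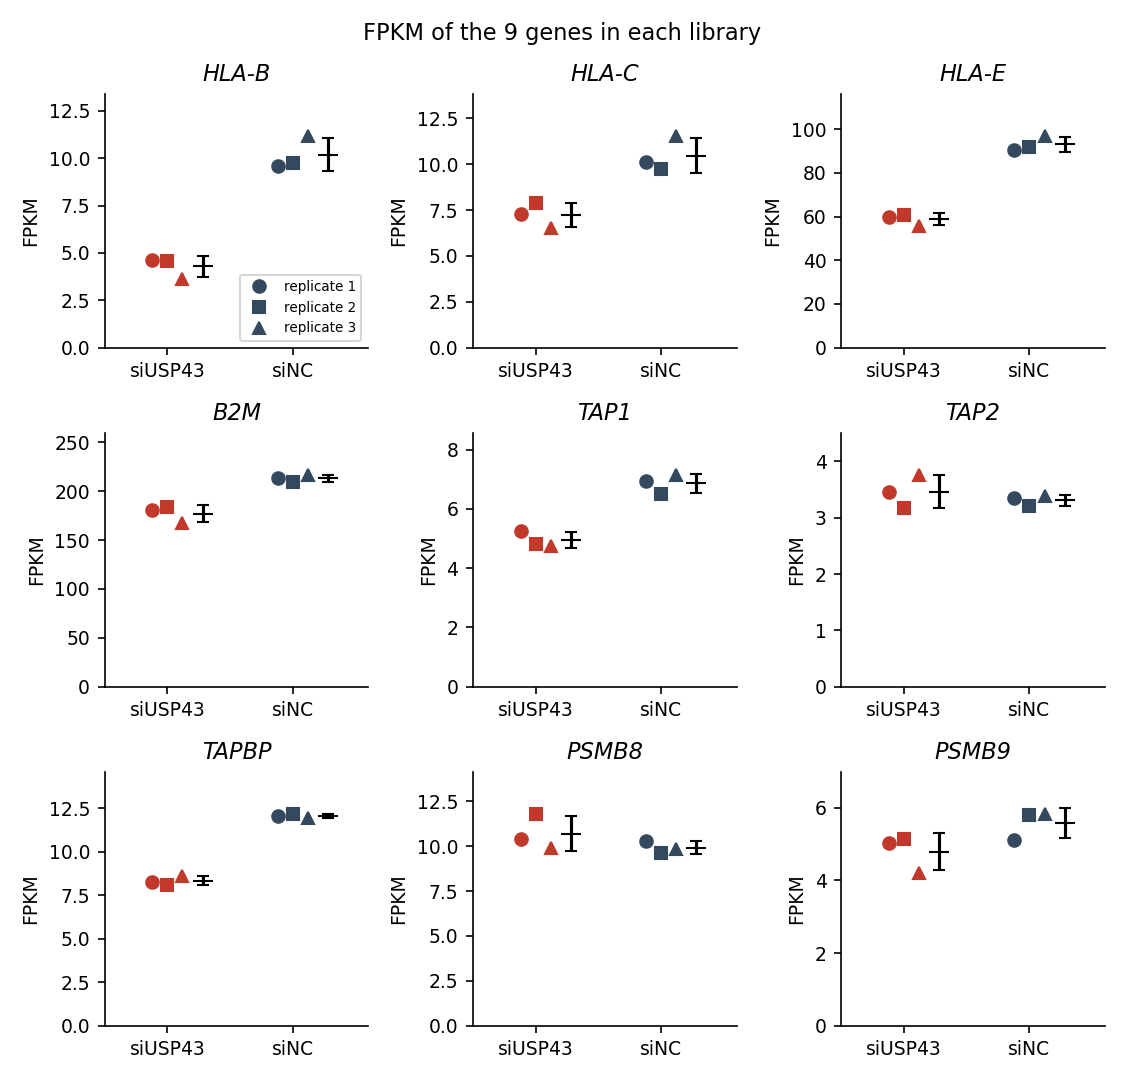
FPKM of each of the 9 genes in every library, siUSP43 in red and siNC in dark blue. Symbols mark replicate 1 (circle), 2 (square) and 3 (triangle), the bars show mean ± SD (n = 3), and each vertical axis starts at 0. The groups are separate for HLA-B, HLA-C, HLA-E, B2M, TAP1 and TAPBP and overlap for TAP2, PSMB8 and PSMB9.

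HLA-B fell the furthest of the 9. This classical heavy chain (ENSG00000234745, GRCh38 chromosome 6, 31353872 to 31367067, minus strand) presents peptides to CD8 T cells and carries ligands for receptors of natural killer cells. Its level was 4.62, 4.59 and 3.65 FPKM in the siUSP43 libraries, against 9.58, 9.77 and 11.18 FPKM in the siNC libraries. No siUSP43 value came near the siNC range, and the highest siNC and lowest siUSP43 values were both from replicate 3. The log2 fold change was -1.27 ± 0.10 (SE; BH-adjusted p by edgeR = 7.39e-07), a level of 0.416 times that in siNC. Only 134 of the 11417 tested genes had a lower log2 fold change. The read counts behind these values were 638, 537 and 510 in siUSP43 and 1266, 1318 and 1514 in siNC.

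HLA-C, the other classical heavy chain among the 9 and a main ligand of killer cell immunoglobulin-like receptors, fell less (ENSG00000204525, chromosome 6, 31268749 to 31272130, minus strand). It had 7.28, 7.87 and 6.53 FPKM in siUSP43, against 10.10, 9.72 and 11.54 FPKM in siNC, and the groups did not overlap. Its log2 fold change was -0.55 ± 0.09 (SE; BH-adjusted p by edgeR = 2.56e-04). HLA-E is a nonclassical heavy chain that presents leader peptides of other class I chains to the inhibitory NKG2A receptor of natural killer cells (ENSG00000204592, chromosome 6, 30489509 to 30494194, plus strand). Its values were 60.01, 60.86 and 55.50 FPKM in siUSP43, against 90.53, 91.67 and 96.93 FPKM in siNC, which places all 3 siUSP43 libraries well below the siNC range. The log2 fold change of HLA-E was -0.68 ± 0.05 (SE; BH-adjusted p by edgeR = 6.84e-07).

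HLA-E made up most of the heavy chain FPKM in both groups. Of the summed FPKM of HLA-B, HLA-C and HLA-E, it held 83.7% ± 0.77 in siUSP43 and 81.9% ± 0.76 in siNC (SD, n = 3 each). The share of HLA-B was 6.42, 6.26 and 5.56% in the siUSP43 libraries, against 8.69, 8.79 and 9.34% in the siNC libraries, with no overlap. HLA-C held 10.3% ± 0.41 in siUSP43 and 9.18% ± 0.45 in siNC (SD, n = 3 each). No order of HLA-B and HLA-C is drawn from these FPKM, since in raw counts HLA-B stood above HLA-C in every library, at 638, 537 and 510 against 545, 499 and 495 in siUSP43 and at 1266, 1318 and 1514 against 724, 711 and 847 in siNC. These shares were not tested, and they depend on the exonic sizes by which the authors scaled, 4623 bases for HLA-B, 2507 for HLA-C and 2922 for HLA-E. The summed heavy chain level was 70.3 ± 4.07 FPKM in siUSP43 and 114 ± 5.20 FPKM in siNC (SD, n = 3 each).

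HLA-F, a nonclassical heavy chain gene outside the 9, also fell. It had 0.99, 1.03 and 0.74 FPKM in siUSP43 and 1.43, 1.38 and 1.69 FPKM in siNC, a log2 fold change of -0.73 ± 0.15 (SE; BH-adjusted p by edgeR = 0.00133). HLA-F passed the filter of 1 FPKM on the mean through siNC, its siUSP43 mean being 0.92 FPKM. HLA-G had no counts in any library. The heavy chain genes are close paralogs and highly polymorphic, and neither the handling of multiply mapped reads nor the cell line's alleles were given in the sources used here, so reads may have been divided or lost among them and their levels relative to each other are uncertain.

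The sequences just upstream of HLA-B and HLA-C are shown because the genes are close paralogs whose decreases differed in size. Each is the 250 bases before the RefSeq start on GRCh38.p14, read 5′ to 3′ on the minus strand, at chr6:31357180-31357429 for HLA-B and chr6:31272093-31272342 for HLA-C. Capitals mark matches, on either strand, to any of 5 motifs, namely the core bound by interferon regulatory factors (AANNGAAA, or TTTCNNTT when read on the other strand), the NF-kB consensus, the cAMP response element core (TGACG or CGTCA), the CCAAT box (CCAAT or ATTGG) and the GAS element of interferon signalling (TTCNNNGAA). The letters of the motifs were settled after the sequences were seen, and the HLA-B window lies inside the deposited span of the gene, whose 5′ end is 9888 bases further upstream.
HLA-B: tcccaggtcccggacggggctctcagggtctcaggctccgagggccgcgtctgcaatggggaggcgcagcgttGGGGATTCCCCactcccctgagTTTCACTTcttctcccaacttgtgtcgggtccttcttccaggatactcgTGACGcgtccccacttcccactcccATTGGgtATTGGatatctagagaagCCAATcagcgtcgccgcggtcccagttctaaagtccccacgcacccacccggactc
HLA-C: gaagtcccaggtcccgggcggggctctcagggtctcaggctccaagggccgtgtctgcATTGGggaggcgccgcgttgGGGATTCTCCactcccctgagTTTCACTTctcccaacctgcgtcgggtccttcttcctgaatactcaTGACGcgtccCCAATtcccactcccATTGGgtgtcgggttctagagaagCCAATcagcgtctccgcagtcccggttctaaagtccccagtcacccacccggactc

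From the far end towards the start, both windows held an NF-kB match, an interferon regulatory factor core, a TGACG and CCAAT boxes, and HLA-C had a further CCAAT box before its NF-kB match. The consensus matched at 2 overlapping positions in HLA-B, GGGGATTCCC and GGGATTCCCC, each on both strands, and once in HLA-C, GGGATTCTCC, on 1 strand. Over 35114 RefSeq upstream windows of the same length, the interferon regulatory factor core was in 20.3%, the NF-kB consensus in 9.96%, the cAMP response element core in 21.2%, the CCAAT box in 32% and the GAS element in 6.57%. A match says only that these letters are present, and no binding was measured.

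B2M was the most abundant of the 9 and fell by the smallest amount among those whose groups did not overlap (ENSG00000166710, chromosome 15, 44711358 to 44718851, plus strand). Its product is the invariant light chain that every class I molecule needs to reach the surface. It had 180.25, 183.52 and 167.00 FPKM in siUSP43, against 213.65, 209.12 and 216.65 FPKM in siNC. The log2 fold change was -0.29 ± 0.05 (SE; BH-adjusted p by edgeR = 2.79e-04). B2M lies outside the MHC, and its counts, at 14485 to 16802 in siUSP43 and 19052 to 19800 in siNC, were the deepest of the 9. The summed HLA-B, HLA-C and HLA-E FPKM came to 39.9, 40.0 and 39.3% of the B2M FPKM in the siUSP43 libraries, against 51.6, 53.2 and 55.2% in the siNC libraries. The heavy chains were thus lower relative to B2M in each siUSP43 library than in any siNC library, a difference that was not tested.

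The window upstream of B2M, at chr15:44711267-44711516 on the plus strand, is given because the gene lies on another chromosome from the rest and also fell.
B2M: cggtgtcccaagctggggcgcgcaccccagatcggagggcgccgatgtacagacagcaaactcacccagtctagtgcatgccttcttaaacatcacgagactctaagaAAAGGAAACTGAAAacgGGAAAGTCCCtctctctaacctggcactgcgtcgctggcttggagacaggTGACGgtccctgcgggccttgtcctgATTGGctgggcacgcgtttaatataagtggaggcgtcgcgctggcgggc

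It held 2 overlapping interferon regulatory factor cores, an NF-kB match 3 bases after them, a TGACG and an ATTGG. The same 4 kinds of match stood upstream of HLA-B and HLA-C.

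Of the transporter genes, TAP1 passed and TAP2 did not. TAP1 (ENSG00000168394, chromosome 6, 32845209 to 32853816, minus strand) fell, with 5.25, 4.82 and 4.76 FPKM in siUSP43 against 6.93, 6.52 and 7.15 FPKM in siNC. The groups did not overlap, and the log2 fold change was -0.49 ± 0.07 (SE; BH-adjusted p by edgeR = 6.90e-05). TAP2 (ENSG00000204267, chromosome 6, 32821833 to 32838739, minus strand) had 3.45, 3.17 and 3.76 FPKM in siUSP43 and 3.35, 3.20 and 3.38 FPKM in siNC. These values overlap throughout, with the highest and the lowest of all 6 both from siUSP43, and the log2 fold change of 0.05 (SE 0.07) did not pass (BH-adjusted p by edgeR = 0.577). The difference between the changes of TAP1 and TAP2 was not itself tested. Another annotated gene on the same strand, with 15 counts over all libraries, covers all 16907 bases of the TAP2 span. How reads shared by both were counted was not given in the sources used here, so reads of TAP2 may have been dropped. The tapasin gene TAPBP (ENSG00000231925, chromosome 6, 33299694 to 33314284, minus strand) fell, at 8.26, 8.09 and 8.61 FPKM in siUSP43 against 12.04, 12.17 and 11.94 FPKM in siNC. Replicates of TAPBP lay close together in both groups, and its log2 fold change was -0.55 ± 0.05 (SE; BH-adjusted p by edgeR = 2.26e-06).

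The windows upstream of TAP1, at chr6:32853705-32853954, and TAP2, at chr6:32838740-32838989, both on the minus strand, are shown side by side for that contrast.
TAP1: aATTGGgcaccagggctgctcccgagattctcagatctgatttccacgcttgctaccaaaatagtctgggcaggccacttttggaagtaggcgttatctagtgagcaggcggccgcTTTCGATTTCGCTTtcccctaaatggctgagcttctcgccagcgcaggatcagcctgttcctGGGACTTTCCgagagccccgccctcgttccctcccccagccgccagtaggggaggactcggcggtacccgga
TAP2: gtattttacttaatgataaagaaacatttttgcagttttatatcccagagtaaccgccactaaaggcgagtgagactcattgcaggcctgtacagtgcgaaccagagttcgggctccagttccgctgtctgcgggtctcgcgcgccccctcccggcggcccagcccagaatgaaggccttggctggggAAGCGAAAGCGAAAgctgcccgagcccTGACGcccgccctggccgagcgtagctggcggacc

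Each held 2 overlapping interferon regulatory factor cores. The NF-kB match GGGACTTTCC was in the TAP1 window and no NF-kB match was in the TAP2 window. The window of TAPBP, not printed, held 2 such cores and the NF-kB match GGGGATTTCC.

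Of the inducible proteasome subunits, PSMB8 did not pass and PSMB9 fell by a small amount. PSMB8 (ENSG00000204264, chromosome 6, 32840717 to 32844679, minus strand) had 10.41, 11.81 and 9.91 FPKM in siUSP43 and 10.31, 9.64 and 9.85 FPKM in siNC. The groups overlapped, and the log2 fold change of 0.09 (SE 0.07) did not pass (BH-adjusted p by edgeR = 0.317), and it was 0.01 without siUSP43 replicate 2 and 0.14 without siUSP43 replicate 3. PSMB9 (ENSG00000240065, chromosome 6, 32844136 to 32859851, plus strand) had 5.02, 5.13 and 4.20 FPKM in siUSP43 and 5.10, 5.81 and 5.83 FPKM in siNC, so that siUSP43 replicate 2 lay above siNC replicate 1. Its log2 fold change was -0.24 ± 0.09 (SE; BH-adjusted p by edgeR = 0.0418). That call ended in 7 of 16 alternatives, among them the fits without siUSP43 replicate 1, siUSP43 replicate 3, siNC replicate 2 or siNC replicate 3, with adjusted p of 0.0635, 0.113, 0.131 and 0.131. The annotated span of PSMB9 contains all of TAP1 and 544 bases of PSMB8 on the opposite strand, and since strand use in the counting was not given in the sources used here, reads of these 3 genes may have been exchanged or dropped where exons overlap.

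The window upstream of PSMB8, at chr6:32844680-32844929 on the minus strand, is shown as that of a gene in the same cluster that did not pass.
PSMB8: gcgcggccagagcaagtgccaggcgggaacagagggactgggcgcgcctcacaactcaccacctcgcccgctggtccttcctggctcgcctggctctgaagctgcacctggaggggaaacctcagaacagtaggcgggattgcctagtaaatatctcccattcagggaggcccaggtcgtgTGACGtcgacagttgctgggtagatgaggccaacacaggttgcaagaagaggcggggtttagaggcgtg

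Its only match was a TGACG, and the PSMB9 window held a CGTCA and a CCAAT. Windows were found for 8 of the 9 genes, HLA-E being the exception. Of these 8, HLA-B, HLA-C, B2M, TAP1 and TAPBP held an NF-kB match and had log2 fold changes from -1.27 to -0.29, while TAP2, PSMB8 and PSMB9 held none and had log2 fold changes of 0.05, 0.09 and -0.24. The other motifs did not divide the genes in this way, and the NF-kB split was picked out with the fold changes known. The interferon regulatory factor core was also in TAP2, the CCAAT box also in PSMB9, and TGACG or CGTCA in TAP2, PSMB8 and PSMB9. No GAS element was found in any of the 8. The grouping by NF-kB match also rests on the window length. The RefSeq starts of TAP1 and PSMB9 are 488 bases apart and point away from each other. The NF-kB match of TAP1, 63 to 72 bases upstream of TAP1, lies between these starts but outside the PSMB9 window. Motifs were chosen with earlier results known, and their letters were settled after the sequences were seen. With 8 genes, this grouping is a description of these windows, and a link between matches and fold changes was not tested. The absence of a match within 250 bases shows nothing about sites elsewhere.

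**Figure D2:**
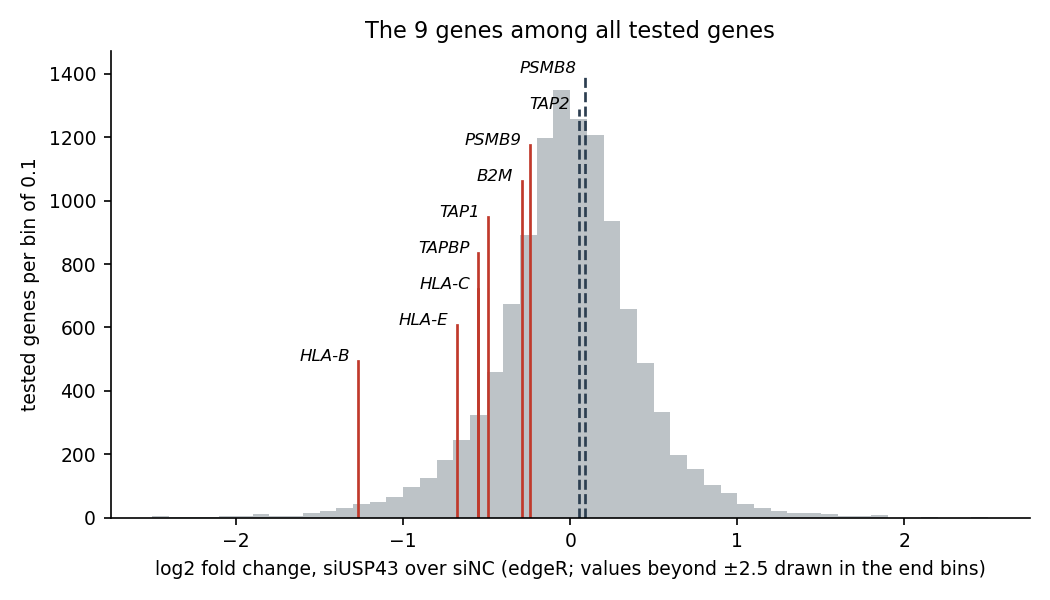
Distribution of the log2 fold change, siUSP43 over siNC, over the 11417 tested genes (grey, in bins of 0.1), with the 9 genes drawn as vertical lines whose heights only separate the labels. Red lines passed the edgeR test and dashed lines did not. HLA-C and TAPBP fall at the same place, -0.55, and HLA-B stands in the lower tail at -1.27.

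In the proteasome core each inducible subunit takes the place of a constitutive one, PSMB8 that of PSMB5, PSMB9 that of PSMB6 and PSMB10 that of PSMB7. PSMB10 is outside the 9, and it fell, at 5.52, 7.17 and 4.60 FPKM in siUSP43 against 13.21, 12.70 and 14.45 FPKM in siNC. Its log2 fold change was -1.25 ± 0.13 (SE; BH-adjusted p by edgeR = 8.96e-06), close to that of HLA-B. The constitutive PSMB5 and PSMB6 did not pass, with log2 fold changes of -0.01 and 0.16, and PSMB7 had -0.15 (BH-adjusted p by edgeR = 0.0495), a decrease whose call was lost in 9 of 16 alternatives, including the fits without siUSP43 replicate 1, siUSP43 replicate 3, siNC replicate 1 or siNC replicate 3. Without siUSP43 replicate 2 the value of PSMB6 was 0.08, and without siUSP43 replicate 3 that of PSMB7 was -0.09. The FPKM of PSMB8 was 15.9% ± 0.997 of that of PSMB5 in siUSP43 and 14.8% ± 1.12 in siNC (SD, n = 3 each; exact two-sided permutation test, p = 0.2). PSMB9 stood at 8.76, 8.11 and 8.24% of PSMB6 in the siUSP43 libraries and at 10.2, 11.7 and 11.1% in the siNC libraries. For PSMB10 against PSMB7 the shares were 5.42, 6.77 and 4.98% in siUSP43 and 11.9, 12.2 and 12.7% in siNC. The last 2 ratios did not overlap between groups, and each gave p = 0.1 by the same exact permutation test, the smallest that 3 against 3 allows (0.15 after Benjamini-Hochberg adjustment over the 3 ratios).

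**Figure D3:**
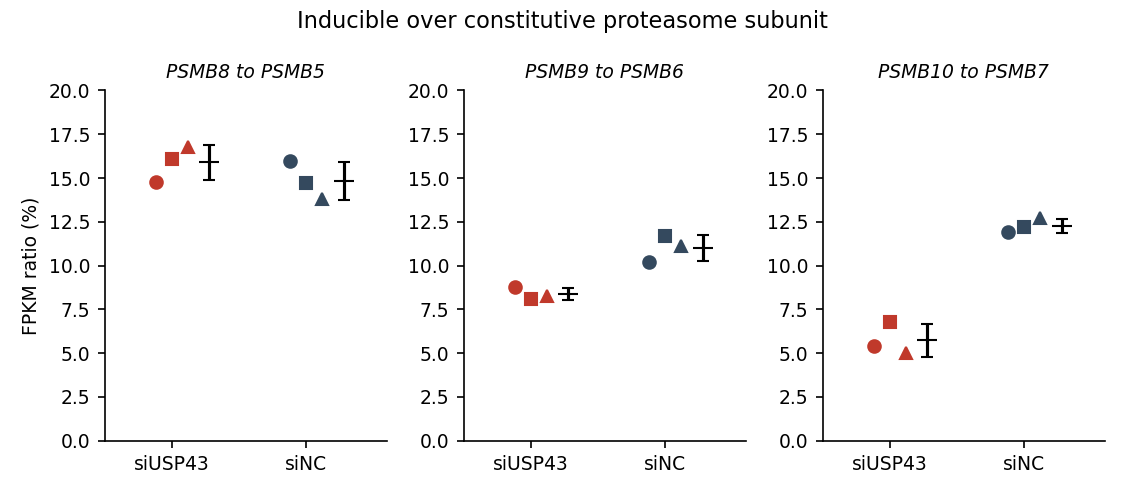
FPKM of each inducible proteasome subunit as a percentage of the FPKM of the constitutive subunit it replaces, in every library, siUSP43 in red and siNC in dark blue, with mean ± SD (n = 3) beside the points. Circles, squares and triangles mark replicates 1, 2 and 3. The ratio of PSMB8 to PSMB5 overlaps between the groups, and the other ratios are lower in all 3 siUSP43 libraries.

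Partners of the 9 genes were read from lists grouped by role, and their counts stand beside 56.1% of all tested genes called, 28.1% lower and 28% higher in siUSP43. Of 5 further immunoproteasome and PA28 genes, 3 fell and 0 rose, with a median log2 fold change of -0.26. Besides PSMB10 these were PSME2 at -0.41 and PSME1 at -0.26, which encode the subunits of the PA28 proteasome activator. Of 7 genes for peptide loading and trimming in the endoplasmic reticulum, 4 rose and 2 fell, with a median of 0.13. The rises included CANX, the calnexin gene, at 0.41 and HSPA5, the BiP chaperone gene, at 0.28. TAPBPL, whose product TAPBPR edits peptides on class I chains, fell by 0.74 on the log2 scale, and ERAP2, an aminopeptidase that trims peptides for class I, by 0.49. Of 7 cytosolic peptidase genes, 4 rose and 0 fell, with a median of 0.24, among them the nardilysin gene NRDC at 0.61 and THOP1, BLMH and LAP3 between 0.24 and 0.26. Calls among the 9 genes and the PA28 list were all decreases and those among the peptidases all increases. With 3 of 5 and 4 of 7 genes called, the PA28 list and the peptidases were near the 56.1% of all tested genes. Calls also went 1 way in the list of interferon receptors and signalling, where 6 fell and 0 rose.

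Of 13 genes for factors that act at class I promoters, 12 were tested, of which 6 fell and 2 rose, with a median log2 fold change of -0.20. That 8 of 12 were called is not far from the 56.1% of all tested genes. IRF1, an interferon regulatory factor, had 2.23, 2.37 and 2.18 FPKM in siUSP43 against 4.59, 4.53 and 4.61 FPKM in siNC. Its log2 fold change was -1.03 ± 0.06 (SE; BH-adjusted p by edgeR = 8.49e-08). RFX5 and NFYC, which encode parts of the complex on the X and Y boxes, were at -0.50 and -0.51, and ATF1, a factor of the cAMP response element family, rose by 0.94. NLRC5, the class I transactivator, had 0.83, 0.82 and 0.81 FPKM in siUSP43 against 0.99, 1.00 and 1.11 FPKM in siNC and was below the filter of 1 FPKM on the mean. With every gene that had at least 1 count in the fit, NLRC5 stood at -0.35 on that scale (BH-adjusted p by edgeR = 0.00354).

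Of 12 genes for interferon receptors and signalling, 10 were tested, and 6 fell and 0 rose, with a median of -0.30. SOCS1 and SOCS3, feedback inhibitors of cytokine signalling, were at -1.67 and -0.72, STAT2 at -0.58 and TYK2 at -0.42. SOCS1, among the 6 that fell, passed the filter of 1 FPKM on the mean only through siNC. Its level was 0.58, 0.49 and 0.48 FPKM in siUSP43 against 1.57, 1.76 and 1.57 FPKM in siNC. The reads behind it were 22 to 31 per library in siUSP43 and 80 to 92 in siNC. Of 9 genes for class I turnover and quality control, 3 rose and 3 fell, with a median of -0.01. SUSD6 and WWP2, whose products act together in the removal of class I molecules from the surface, were at -0.71 and 0.57, and HM13, the signal peptide peptidase that releases leader peptides for HLA-E, was at -0.70. MARCHF9, a membrane ubiquitin ligase, fell by 0.59. Of 4 tested ligands of the NKG2D receptor, ULBP3 fell by 1.32 and MICB by 0.91, and 0 rose. Of 8 class II genes only HLA-DPB1 and CD74 passed the filter, and CD74, the invariant chain gene, fell by 0.86.

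**Figure D4:**
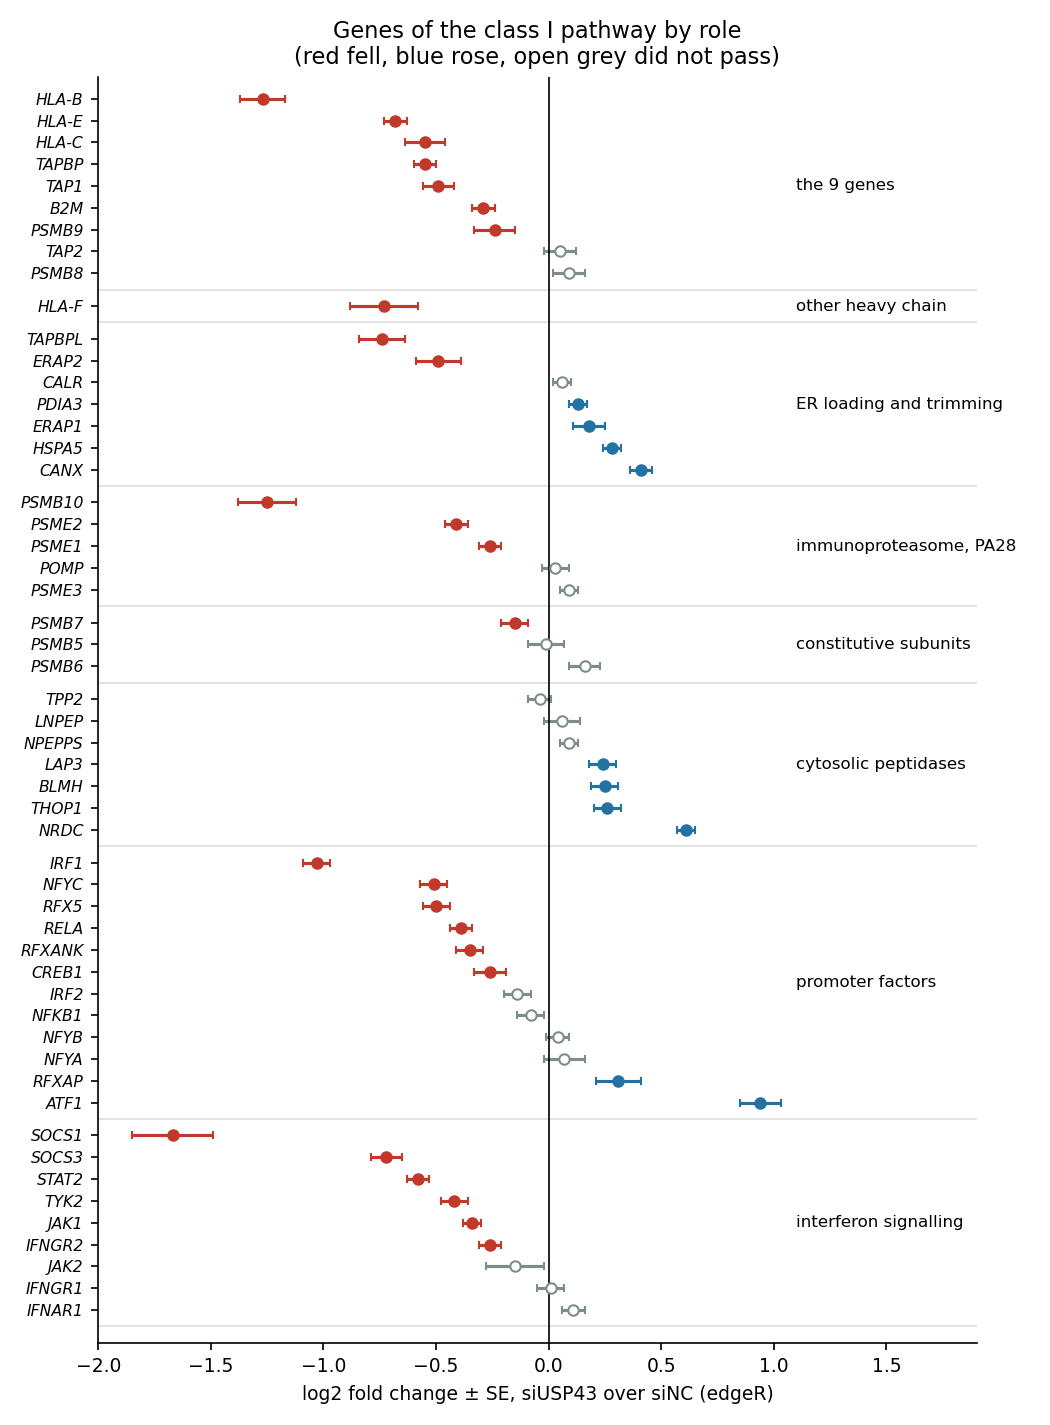
Log2 fold change with its SE, siUSP43 over siNC, for the 9 genes and most of the tested members of 7 related lists, from the edgeR fit over all tested genes. Red points fell, blue points rose and open grey points did not pass. Heavy chains, IRF1 and PSMB10 lie to the left, and the cytosolic peptidases that passed lie to the right.

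Of the 9 genes, 8 lie on chromosome 6 in the major histocompatibility complex, and this position was not used to choose them. Between the start of HLA-F and the end of TAPBP (GRCh38 chromosome 6, 29722775 to 33314284), limits chosen with the values known, 81 genes were tested. Of the 73 that are not among the 9, 30 fell, 17 rose and 26 did not pass, so that 41.1% fell, where 28.1% of all tested genes did. Their median log2 fold change was -0.15, against -0.52 for the members in the region. TAP2, PSMB8, TAP1 and PSMB9 are neighbours within that region, and the RefSeq starts of TAP1 and PSMB9 are 488 bases apart and point away from each other. Along this cluster the log2 fold changes were 0.05, 0.09, -0.49 and -0.24, in the order in which the genes were just named.

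**Figure D5:**
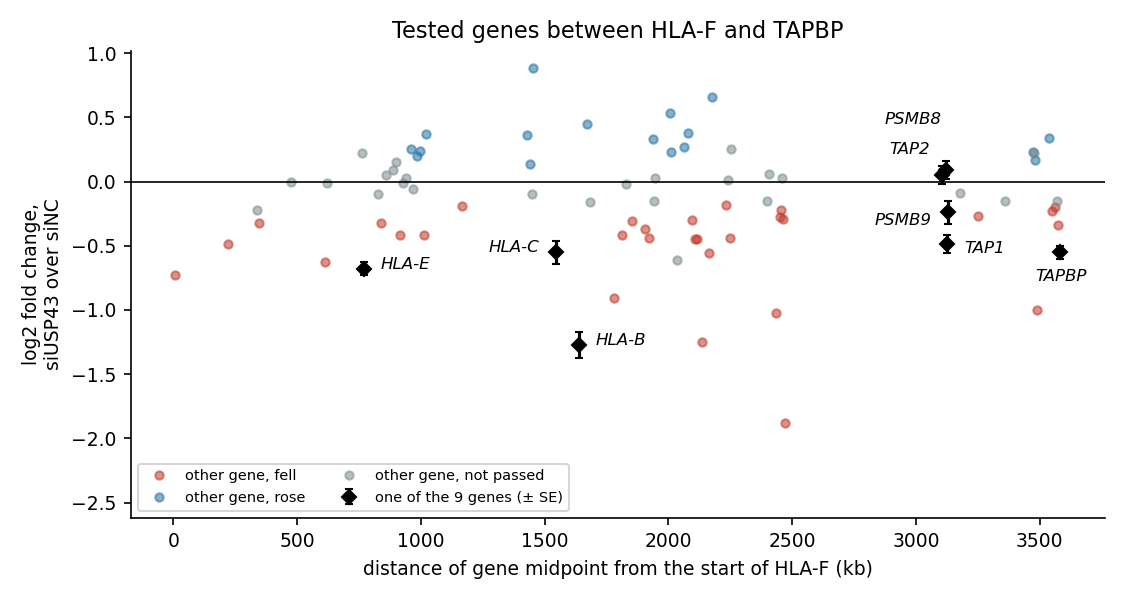
Log2 fold change, siUSP43 over siNC, of the 81 tested genes between HLA-F and TAPBP on chromosome 6, against the distance of the gene's midpoint from the start of HLA-F in kilobases. Black diamonds with SE bars are 8 of the 9 genes, B2M being on chromosome 15, and circles are other genes, red where they fell, blue where they rose and grey where they did not pass. TAP2 and PSMB8 sit at 0.05 and 0.09 beside TAP1 at -0.49, and HLA-B at -1.27 is the lowest of the 8.

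For most of the 9 genes, replicate 3 lay at one end of its group. Of the siUSP43 libraries, replicate 3 was the lowest for 7 of the 9 genes, TAP2 and TAPBP being the exceptions, at which it was the highest. Of the siNC libraries, replicate 3 was the highest for 7 of the 9, all but TAPBP and PSMB8. Leaving out either library kept the calls of HLA-B, HLA-C, HLA-E, B2M, TAP1 and TAPBP. The log2 fold change of HLA-B was -1.16 without siUSP43 replicate 3 and -1.19 without siNC replicate 3. Replicate 3 was also the least like the others of its group over the genes at large. Chi-square per degree of freedom was 6.11 and 10.2 for its siUSP43 pairs against 3.2 for the remaining pair. In siNC it was 4.11 and 3.52 against 2.07. The share of all tested genes with replicate 3 at one end was not counted, so the pattern is not shown to be particular to the 9. What set these libraries apart was not tested.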

How the data were processed

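The authors deposited 1 table of raw read counts and FPKM values per gene for the 6 samples, per the file headers, with exonic gene sizes. The submitters' processing notes name cutadapt 2.6, HISAT2 2.2.1 and the build GRCh38. For the counter, annotation release and strand setting, the entry is not given in the sources used here. Groups and replicate numbers came from the sample titles. Genes averaging 1 FPKM or more, plus USP43, entered the test, and their counts were fitted with edgeR 4.0.16 in R 4.3.3 (TMM scaling, quasi-likelihood test, group as the only term), with Benjamini-Hochberg adjustment over all 11417 genes, threshold 0.05, two-sided. The SE is the log2 fold change over the root of F. Alternatives included DESeq2 1.42.0 and limma 3.58.1. Members, lists and motifs were chosen with earlier results of these data known. The text names USP43, the 9 genes, a fixed set of partners and at most 4 called genes of each list. CD8A, CD14, ITGAX and the other cell type markers were named in addition. Some listed genes are not reported here. Upstream sequences are from RefSeq on GRCh38.p14. Where the deposited span of a gene starts elsewhere, the window may lie within it.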

Additional observations from a re-analysis of the deposited data

How the results depend on the processing

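The 9 genes and the named partners were refitted under up to 16 alternatives, covering scaling, filters, other tools, a replicate block and each library left out. HLA-B, HLA-C, HLA-E, B2M, TAP1 and TAPBP kept their direction and their call in all 16, with HLA-B between -1.32 and -1.08 on the log2 scale. PSMB9 lost its call in 7 and PSMB7 in 9. With a mean FPKM of at least 5, which tests fewer genes, 1889 genes rose and 1892 fell, and TAP2, IRF1, HLA-F, TAPBPL, ERAP2, SOCS1, SUSD6, WWP2, ULBP3 and CD74 have no value there. Values near 0 changed sign, TAP2 to -0.02 without siUSP43 replicate 3 (-0.02 to 0.11 over single libraries left out) and PSMB5 to 0.00 with limma on log2(FPKM + 1) or log2(FPKM + 0.1), 0.08 without siUSP43 replicate 3 and 0.04 without siNC replicate 3 (-0.07 to 0.08). The cause was not tested. PSMB6 passed in 2 alternatives. The HLA-B share of the heavy chains differed by -2.86 percentage points between siUSP43 and siNC in FPKM and by -4.19 in raw counts, which leaves out the exonic sizes.

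Deviations from the group means had correlations of -0.0128, -0.126 and -0.261 between same-numbered libraries. Between differently numbered libraries they ran from -0.164 to 0.27. Deviations from a mean of 3 libraries are tied to each other, so this check cannot settle whether the numbers pair the samples. With a replicate block 6 of the 9 genes fell, PSMB9 having an adjusted p of 0.0579 in edgeR, and 2775 genes rose and 2841 fell. With 3 libraries a group and 424 to 19800 reads per library for the 9 genes, the SE of their log2 fold changes ran from 0.05 to 0.10.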
